A study of Homo sapiens with 15 samples.

Results

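Antisense noncoding RNA genes were taken as the genes whose current symbol ends in -AS and a number, with OIP5-AS1 left out. There were 76 of them among the 14432 genes of the series' gene tables, and RefSeq types all 76 as lncRNA. Such a gene is named after a gene on the facing strand, here called its sense partner: the symbol that remains when -AS and the number are taken off. Many antisense RNAs start close to the start of their partner and run the other way, so that 1 stretch of open promoter DNA serves a pair of transcripts. H3K4me3 is a histone mark of active promoters, and H3K27me3 is the mark that EZH2 of Polycomb repressive complex 2 places at silent ones. PHC1 is a subunit of Polycomb repressive complex 1, and the series set RNA bound by PHC1 against total nuclear RNA and against RNA bound by RNA polymerase II (RNAPII).

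All 15 samples came from HEK293T T-REx, a human embryonic kidney line. PAR-CLIP, which crosslinks RNA holding a photoreactive nucleoside to the protein it touches, was made for PHC1 in 2 libraries from cells with a PHC1 transgene, grown in hygromycin, fed 4-thiouridine (4SU) and pulled down on streptavidin beads. It was also made for RNAPII from cells without a transgene, by an antibody to its C-terminal domain, in 1 library with 4SU and 1 with 6-thioguanosine (6SG). Total nuclear RNA had 2 libraries from untreated cells without a transgene. Transgene, nucleoside and pull-down therefore differ between PHC1 PAR-CLIP and nuclear RNA, and their parts in a difference cannot be told apart. ChIP-seq covered RNAPII, EZH2, H3K27me3, H3K4me3 and input with 1 library each from cells without a transgene, and PHC1 and PHC1-dFCS, each from cells with that transgene, as 1 deposited column for 2 libraries. How the transgenes are driven, and whether the lines are clones, is not given in the sources used here.

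The nuclear RNA libraries held 47187882 and 49626658 counted reads. The ChIP libraries held from 32.5M to 43.1M reads, and the input gave from 13 to 38 reads at a member's start site. The PHC1 PAR-CLIP libraries held 696186 and 698056 clusters, the 4SU library of RNAPII 667937 and the 6SG library 45259. The 6SG library thus stood apart in depth, and only 18 of its clusters fell to the antisense RNA genes. Marker genes for the line (PAX2, LHX1, NEFL, INA and ELAVL3) summed to 205 and 204 counts per 1M in the RNA libraries, against at most 2.16 for fibroblast, blood, hepatocyte or keratinocyte markers. Most of that sum was NEFL (141 and 142) and INA (51.6 and 49.3). ELAVL3 was low with 0.593 and 0.383, under the fibroblast marker COL1A1 with 1.53 and 1.55. The labels do not say that replicates were separate cultures, so each p-value here speaks of the scatter among libraries, and that scatter may be only technical.

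Nuclear RNA of antisense RNA genes was low per length but was found for most of them. In both libraries, 52 of the 76 (68.4%) had at least 1 read per 1M, beside 68.7% of all genes, 29.8% of the 831 other lncRNA genes and 90.3% of the 62 sense partners with a row. Per kilobase of gene region and 1M reads (RPKM), their median was 0.343 and 0.346 in the 2 libraries, against 0.569 and 0.568 for all genes and 0.0106 and 0.00956 for the other lncRNA genes. Regions ran from 1.12 to 307 kb, and the counts cover the whole region, introns included. SPATA8-AS1 was at 0 in both libraries.

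By reads, the leading members were NR2F1-AS1 with 4768 and 5075 and TPT1-AS1 with 4103 and 4479. NR2F1 is a nuclear receptor transcription factor, and TPT1 is the translationally controlled tumor protein. They were followed by TAPT1-AS1 (2635 and 2890 reads), PM20D1-AS1 (2485 and 2586), STX18-AS1 (2466 and 2434) and LMCD1-AS1 (2000 and 1996). NR2F1-AS1 and TPT1-AS1 stood above the other 4 in both libraries. Per length the order was different. PCGF3-AS1, on the other strand from the Polycomb ring finger gene PCGF3, led with 10.2 and 9.99 RPKM over a region of 1700 bases, and KMT2E-AS1 came next with 5.99 and 6.10. LMCD1-AS1, whose region is the longest at 307 kb, had a mean of 0.134 RPKM. Reads are also given for the members on a fixed list of antisense RNAs with a known role. GATA3-AS1 had 61 and 53, GATA6-AS1 94 and 95, HAND2-AS1 54 and 74, ZNF561-AS1 181 and 194, and HOXD-AS2 303 and 269.

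At their start sites, most antisense RNA genes carried H3K4me3. The ChIP signal was at least 2 times the input at 51 of 76 members (67.1%), beside 61.9% of all genes and 27.2% of the other lncRNA genes. RNAPII passed the same threshold at 39 members (51.3%), beside 43.8% of all genes and 18.9% of the other lncRNA genes. Every one of these 39 was among the 51 with H3K4me3, and over all genes 6271 of the 6318 with RNAPII had the mark too. These are ratios of 1 library to 1 input, with no replicate and no test. At 1.5 times the input H3K4me3 was found at 53 members (all genes: 64.2%) and RNAPII at 53 (57.1%), and at 3 times at 50 (59.1%) and 23 (23.8%).

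The highest H3K4me3 stood at CCDC18-AS1, 18.0 times the input (432 reads against 18), then ZNF407-AS1 and TRIM52-AS1 (both 16.8), and EXOC3-AS1 with 16.1 was also among the 5 highest. Among the 5 highest for RNAPII were ZNF566-AS1 (5.92 times the input), CCDC18-AS1 (5.62), ATP2B1-AS1 (5.47) and MNX1-AS1 (5.35). CCDC18-AS1 was thus high in both. Across the 76 members, H3K4me3 and RNAPII ratios, which share the input, had a Spearman correlation of 0.83, and H3K4me3 and mean RPKM one of 0.60 (all 14432 genes: 0.83 and 0.71).

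Polycomb marks were rare. H3K27me3 reached 2 times the input at 1 member, beside 1.04% of all genes, and EZH2 at 1, beside 0.825%. The H3K27me3 one was NECTIN3-AS1 with 2.02 (38 reads against 15 in the input). The next highest were JRKL-AS1 (1.82), STPG2-AS1 (1.44), BRWD1-AS1 (1.20) and EPHA5-AS1 (1.20). The EZH2 one, named after its value was seen, was LIN28B-AS1 with 2.06 (31 reads against 15), where H3K27me3 was 1.06. At 1.5 times the input the members numbered 2 for H3K27me3 (all genes: 4.64%) and 6 for EZH2 (7.43%), and at 3 times 0 (0.0554%) and 0 (0.0416%). NECTIN3-AS1, JRKL-AS1 and STPG2-AS1 had at most 26 nuclear RNA reads in either library, and none of them reached 2 times the input in H3K4me3. The authors' PHC1 value, set over the input, had a median of 1.02 over the members (0.616 to 1.63), against 1.01 for all genes. The authors' PHC1-dFCS value had a median of 1.15 (0.666 to 2.34), against 1.17 for all genes.

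The members without H3K4me3 had little RNA, with exceptions. The 25 under 2 times the input had a median of 0.0261 RPKM, and the 51 others one of 0.629 (all genes: 0.00945 and 1.64). Yet 8 of the 25 had at least 1 read per 1M in both RNA libraries, beside 1426 of 5497 over all genes. Chief among the 8 members were PM20D1-AS1 (H3K4me3 0.74, 1.54 RPKM), FOXD2-AS1 (1.30, 1.51 RPKM), PPP1R26-AS1 (1.74, 1.07 RPKM) and SLC25A25-AS1 (0.88, 1.00 RPKM). They are in the upper left of the plot of start-site H3K4me3 against nuclear RNA.

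**Figure D1:**
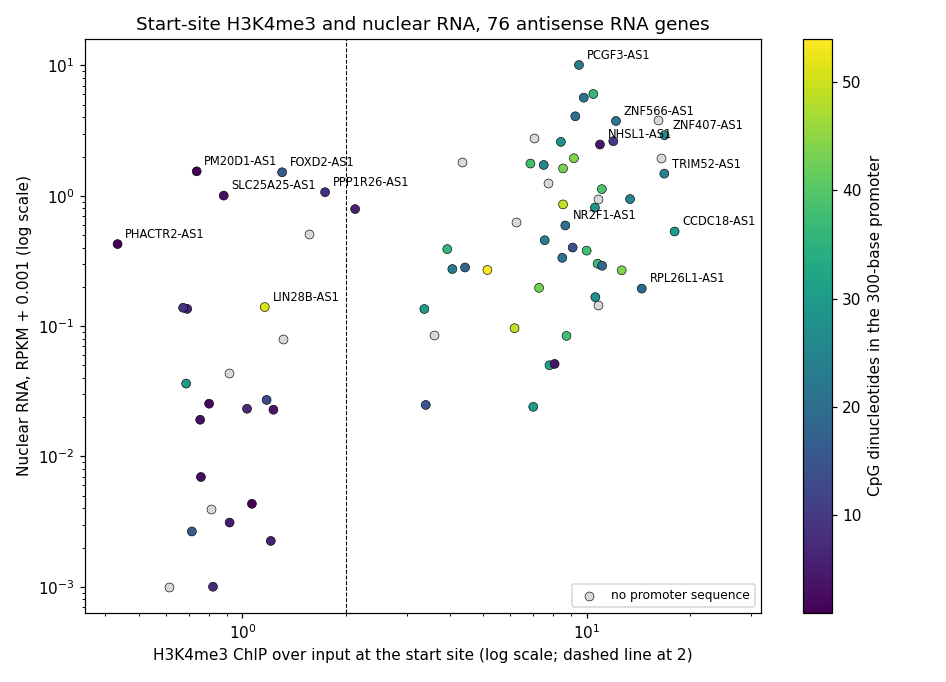
H3K4me3 ChIP over input at the start site (x, log scale) against mean nuclear RNA in RPKM plus 0.001 (y, log scale) for the 76 antisense RNA genes, coloured by CpG number in the promoter (grey: no promoter sequence). The 51 genes right of the dashed line, at 2 times the input, all had some RNA, while PM20D1-AS1, FOXD2-AS1, PPP1R26-AS1 and SLC25A25-AS1 lie to its left with 1.00 to 1.54 RPKM.

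RefSeq promoters of 300 bases, from 250 before to 50 after the start, were matched for 62 members (GRCh38.p14). CpG dinucleotides (the letters CG on 1 strand, which read the same on the other) numbered 21.5 at the median, against 22 over 10969 genes. Of the 44 members with 10 or more, 88.6% had H3K4me3 of at least 2 times the input (all genes: 83.4%), and of the 18 with fewer, 16.7% (all genes: 15.5%). A CCAAT, read on both strands as CCAAT or ATTGG, stood in 37.1% of the members' promoters and 36.0% of all. A TATAAA, or TTTATA on the other strand, stood in 4.84% and 8.89%, and a GGGCGG, or CCGCCC, in 56.5% and 60.0%. A match of letters is not a site in use.

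6 promoters are shown for how CpG and H3K4me3 went together and where they did not, with each CG in capitals. CCDC18-AS1 at chr1:93345762-93346061, minus strand, and ZNF566-AS1 at chr19:36489377-36489676, plus strand, have 30 and 22 CG and H3K4me3 of 18.0 and 12.2 times the input. NHSL1-AS1 at chr6:138691418-138691717, plus strand, has 4 CG and yet 10.9, and LIN28B-AS1 at chr6:104940478-104940777, minus strand, has 51 CG and 1.16. PM20D1-AS1 at chr1:205861829-205862128, plus strand, with 1 CG, and SLC25A25-AS1 at chr9:128118685-128118984, minus strand, with 3, belong to the transcribed members without the mark.
CCDC18-AS1: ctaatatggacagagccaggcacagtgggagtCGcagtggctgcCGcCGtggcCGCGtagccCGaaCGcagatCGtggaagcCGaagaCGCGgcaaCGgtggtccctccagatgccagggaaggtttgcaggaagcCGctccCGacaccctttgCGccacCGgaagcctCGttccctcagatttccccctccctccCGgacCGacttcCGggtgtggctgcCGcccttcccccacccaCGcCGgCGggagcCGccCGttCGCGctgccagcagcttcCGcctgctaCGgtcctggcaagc
ZNF566-AS1: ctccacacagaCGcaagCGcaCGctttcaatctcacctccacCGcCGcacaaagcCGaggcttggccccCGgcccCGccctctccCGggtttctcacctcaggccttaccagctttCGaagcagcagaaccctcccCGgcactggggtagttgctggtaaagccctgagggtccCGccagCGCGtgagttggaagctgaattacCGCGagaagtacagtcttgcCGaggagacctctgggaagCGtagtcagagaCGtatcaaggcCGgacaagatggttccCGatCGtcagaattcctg
NHSL1-AS1: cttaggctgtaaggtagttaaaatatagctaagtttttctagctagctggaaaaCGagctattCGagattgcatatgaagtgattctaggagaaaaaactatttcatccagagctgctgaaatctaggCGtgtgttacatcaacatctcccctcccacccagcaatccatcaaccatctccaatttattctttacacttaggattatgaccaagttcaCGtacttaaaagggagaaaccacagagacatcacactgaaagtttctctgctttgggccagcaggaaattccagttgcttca
LIN28B-AS1: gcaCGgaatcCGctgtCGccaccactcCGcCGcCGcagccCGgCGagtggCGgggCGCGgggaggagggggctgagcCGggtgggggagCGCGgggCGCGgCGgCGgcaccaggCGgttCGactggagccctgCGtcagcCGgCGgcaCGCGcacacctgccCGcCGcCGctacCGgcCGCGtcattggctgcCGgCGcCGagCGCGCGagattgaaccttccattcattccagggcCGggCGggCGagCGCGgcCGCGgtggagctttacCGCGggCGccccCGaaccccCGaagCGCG
PM20D1-AS1: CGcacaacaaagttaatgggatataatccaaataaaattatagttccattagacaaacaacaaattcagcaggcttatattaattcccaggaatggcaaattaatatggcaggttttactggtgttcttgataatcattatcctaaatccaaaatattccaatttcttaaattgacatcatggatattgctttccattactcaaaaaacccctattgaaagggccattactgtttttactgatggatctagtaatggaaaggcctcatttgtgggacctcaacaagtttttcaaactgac
SLC25A25-AS1: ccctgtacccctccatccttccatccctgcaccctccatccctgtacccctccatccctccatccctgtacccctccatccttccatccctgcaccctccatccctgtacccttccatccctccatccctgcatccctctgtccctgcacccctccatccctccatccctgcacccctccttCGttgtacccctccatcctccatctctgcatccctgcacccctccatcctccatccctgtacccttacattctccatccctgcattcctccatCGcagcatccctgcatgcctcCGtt

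PHC1 PAR-CLIP coverage was larger where nuclear RNA was larger, and single antisense RNA genes lay on either side of it. Across the 62 members with a strand, own-strand coverage and RNA reads had Spearman correlations of 0.76 and 0.73 in the 2 PHC1 libraries, against 0.85 and 0.84 over 10969 genes, and neither measure is scaled to region length. The values compared are summed cluster coverage on the gene's own strand and RNA reads, both scaled to per-million values, on a log2 scale with a pseudocount of 1. Of the 76, 55 passed the filter of 1 per 1M in at least 2 libraries. By limma with adjusted p under 0.05, 10 of the 55 were higher in PHC1 PAR-CLIP (18.2%, all genes 34.6%) and 26 lower (47.3%, all genes 45.5%). The share of lower calls was thus near that of all genes. Their median log2 difference was -0.61, and that of the 10821 genes tested was -0.36. With scaling by totals alone the median of all genes moved by -0.47. The members' split became 7 higher and 34 lower of 59 tested (all genes: 26.1% and 55.2%). The median for the 500 LINC genes, of which 178 were tested, was 1.15.

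The filter shaped these counts. 14 of the lower members passed it through RNA alone, and all 14 were called lower. The 2 that passed through PHC1 alone, LZTS1-AS1 and OTX2-AS1, were both called higher. The 39 that passed through both kinds of library held 8 higher, 12 lower and 19 with no call, with a median log2 difference of -0.20. 31 of the 76 had no PHC1 cluster in either library, and 9 of those 31 had clusters in the 4SU library of RNAPII.

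**Figure D2:**
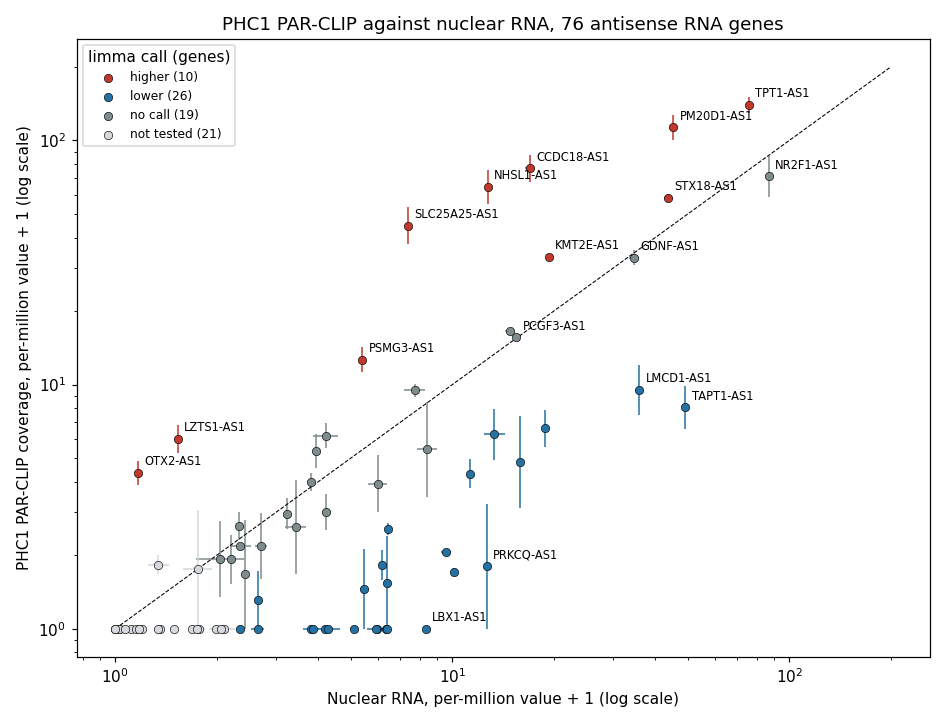
PHC1 PAR-CLIP coverage (y) against nuclear RNA (x), both as per-million values plus 1 on log scales, for the 76 antisense RNA genes, coloured by limma call. Points are geometric means of 2 libraries, lines span the 2 libraries, the dashed line marks equal values, and the row of points at 1 on the y axis holds the 31 genes with no PHC1 cluster.

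TPT1-AS1 had the most PHC1 coverage of all members. Its per-million values were 129 and 149 in the PHC1 libraries and 73.6 and 76.1 in nuclear RNA, a log2 difference of 0.88 (SE 0.10, adjusted p = 0.0031). PM20D1-AS1, on the strand facing the peptidase gene PM20D1, had 99.3 and 126 against 44.6 and 44.0 (log2 1.32, SE 0.15, adjusted p = 0.0029). CCDC18-AS1 had 66.5 and 86.4 against 15.4 and 16.6 (log2 2.17, SE 0.17, adjusted p = 0.0012). In each of these 3 genes both PHC1 libraries lay above both RNA libraries, and the coverage was spread over 29 to 62 clusters per library.

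SLC25A25-AS1, named after a mitochondrial carrier, had the largest difference among the members called higher. Its PHC1 values were 36.6 and 52.3 and its RNA values 6.47 and 6.34 (log2 2.60, SE 0.22, adjusted p = 0.0015), from 19 and 12 clusters. NHSL1-AS1 followed with 74.7 and 54.0 against 11.7 and 11.8 (log2 2.34, SE 0.20). KMT2E-AS1, which starts 49 bases from the gene of a SET-domain chromatin protein, had 31.9 and 32.9 against 18.2 and 18.5 (log2 0.79, SE 0.11). PSMG3-AS1, named after a proteasome assembly chaperone, had 13.2 and 10.2 against 4.30 and 4.52 (log2 1.22, SE 0.19). The groups of libraries did not overlap in any of them. Without either RNA library, KMT2E-AS1 and PSMG3-AS1 kept values of 0.77 to 1.24 but were not called, with adjusted p from 0.073 to 0.093.

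The other 3 higher calls were STX18-AS1, LZTS1-AS1 and OTX2-AS1. STX18-AS1, named after a SNARE protein of the endoplasmic reticulum, had 55.1 and 59.6 against 44.2 and 41.4 (log2 0.41, SE 0.09, adjusted p = 0.021), and this call ended, with log2 -0.06, when libraries were scaled by totals alone. Its call was also lost without either RNA library (adjusted p = 0.18 and 0.27). LZTS1-AS1 (log2 1.97), whose strand is not given and whose clusters were taken from both strands, rested on 1 cluster in each PHC1 library. OTX2-AS1 (log2 1.90), named after a homeobox gene of the forebrain, rested on 2 clusters in each and on 10 and 9 RNA reads. For TPT1-AS1 and KMT2E-AS1 too, scaling by totals alone gave adjusted p of 0.066 and 0.078.

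At the low end stood members with clear RNA and much less PHC1 coverage. TAPT1-AS1 had 47.3 and 49.1 per 1M in RNA and 5.60 and 8.83 in PHC1 PAR-CLIP (log2 -2.61, SE 0.24, adjusted p = 0.0019). PRKCQ-AS1, named after protein kinase C theta, had 11.8 and 11.5 against 2.24 and 0 (log2 -2.81, SE 0.65), so 1 cluster in 1 library was all its coverage (either strand, as its own and that of TAPT1-AS1 are not given). MNX1-AS1, beside the motor neuron homeobox gene MNX1, had 9.33 and 8.94 against 0.65 and 0.77 (log2 -2.57, SE 0.13), and PPP1R26-AS1 8.88 and 8.28 against 1.11 and 1.01 (log2 -2.22, SE 0.14). MNX1-AS1 passed the filter through RNA alone, so its direction was fixed. The PHC1 values lay below the RNA values in all 4 genes.

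The other 6 of the 10 lowest were listed at 0 in both PHC1 libraries. They were LBX1-AS1, PHACTR2-AS1, ANXA2R-AS1, HOXD-AS2, TRAM2-AS1 and ATP2B1-AS1, with 3.96 to 7.38 per 1M in the RNA libraries. 12 of the 26 lower members were listed at 0 in this way, so their fitted differences depend on the pseudocount. Of the 6 named here, LBX1-AS1, ANXA2R-AS1 and TRAM2-AS1 had 3, 4 and 2 clusters in the 4SU library of RNAPII, and the other 3 had none there either. Without the first or the second RNA library, 40 or 41 members passed the filter, and 7 or 9 were called lower instead of 26.

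NR2F1-AS1, GDNF-AS1 and PCGF3-AS1 had PHC1 coverage close to their RNA. NR2F1-AS1 had 85.8 and 57.7 in PHC1 PAR-CLIP and 85.5 and 86.3 in RNA (log2 -0.28, SE 0.22, adjusted p = 0.30). GDNF-AS1, beside the gene of the neurotrophic factor GDNF, had 29.9 and 34.5 against 32.4 and 34.8 (log2 -0.06, SE 0.12). PCGF3-AS1 had 14.9 and 14.3 against 14.7 and 14.3 (log2 0.01, SE 0.13). The PHC1 and RNA values overlapped in all 3. NR2F1-AS1 was called lower without PHC1 replicate 1 (log2 -0.57) and had 0.03 without replicate 2. With scaling by totals alone, NR2F1-AS1 (-0.76) and GDNF-AS1 (-0.53) were called lower.

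By the role of the partner, 0 of 7 zinc finger members were higher (all genes: 34.6%) and 5 were lower (all genes: 45.5%; ZNF143-AS1, ZNF407-AS1, ZNF561-AS1, ZNF566-AS1 and ZNF674-AS1), with a median log2 difference of -1.39 over the 7. ZNF561-AS1 was listed at 0 on its own strand and had no call with clusters of either strand (0.43). ZNF143-AS1, ZNF566-AS1 and ZNF674-AS1 held at most 1 PHC1 cluster per library. Of 8 members whose partners are on a fixed list of transcription factor genes (LBX1 is not on it), 6 were tested. OTX2-AS1 was higher and 4 were lower, beside the same shares over all genes. All 4 lower members (FOXD2-AS1, GATA6-AS1, MEIS1-AS3 and MNX1-AS1) passed the filter through RNA alone, so their direction was fixed. Of these, FOXD2-AS1 and MEIS1-AS3 had no PHC1 cluster. OTX2-AS1 passed through PHC1 alone, so its direction was fixed too. Of the 3 facing kinase, phosphatase or ubiquitin enzyme genes, PPP1R26-AS1 and PRKCQ-AS1 were lower and TRIM52-AS1 had no call (log2 0.16). The 1 HOX member, HOXD-AS2, was lower and listed at 0 in both PHC1 libraries. Across the 43 tested members with a PHC1 cluster, region length and log2 difference had a Spearman correlation of 0.18, against 0.23 over 9915 genes.

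Against RNAPII PAR-CLIP, no antisense RNA gene was called. Of 37 tested by limma, 0 were higher and 0 lower (all genes: 0.0% and 0.0% of 9627). At an unadjusted p under 0.05, 4 members and 1645 genes were higher, 0 members and 600 genes lower. The 2 RNAPII libraries differed from each other with an SD of 0.97 on the log2 scale, against 0.23 for the PHC1 pair. In data simulated on this comparison, 0 of 100 genes changed 4-fold were recovered, so the design could not show such changes.

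When only the 4SU library served as control, and was assumed to vary like the PHC1 pair, 3 of 35 members were higher (all genes: 29.3%) and 3 lower (all genes: 23.9%). PM20D1-AS1 had 92.6 and 118 per 1M in the PHC1 libraries and 28.5 in the 4SU library (log2 1.84, SE 0.26, adjusted p = 8.7e-05). TPT1-AS1 had 120 and 139 against 42.5 (log2 1.58, SE 0.23), and LZTS1-AS1 3.95 and 5.46 against 0.56 (log2 1.83). LZTS1-AS1 passed the filter through the PHC1 libraries alone, so its direction was fixed, and it rested on 1 cluster in each of them. CCDC18-AS1 had 61.98 and 80.5 against 68.5 and no call. This comparison and the one with nuclear RNA share the 2 PHC1 libraries, so calls in both are not independent.

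On the other side, LMCD1-AS1, named after a LIM-domain cofactor, had 6.08 and 10.3 against 22.1 (log2 -1.37, SE 0.50), from 2 and 5 clusters in the PHC1 libraries and 24 in the 4SU library. STX18-AS1 had 51.3 and 55.6 against 92.6 (log2 -0.78, SE 0.25), and ZNF566-AS1 1.05 and 0 against 6.44 (log2 -2.35, SE 0.71). PPP1R26-AS1 was not tested there for its low PHC1 values, but it held 1 PHC1 cluster per library and 24 in the 4SU library. With numbers of clusters in place of coverage, edgeR called 2 of 15 members higher and 2 lower (all genes: 22.3% and 12.1%). DESeq2 called 0 and 0 (all genes: 0.0141% and 0.0283%).

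Within the antisense RNA gene regions, most PAR-CLIP clusters lay on the gene's own strand. Over the 62 members with a strand in the RefSeq table, the own strand held 348 clusters in PHC1 replicate 1 and the opposite strand 54 (86.6% own, 95% Wilson interval 82.9 to 89.6) and in replicate 2 they held 314 and 32 (90.8%, 87.2 to 93.4). The numbers were 454 and 47 in the 4SU library of RNAPII (90.6%, 87.7 to 92.9) and 16 and 7 in the 6SG library (69.6%, 49.1 to 84.4). The intervals cover counting error only, and clusters of 1 gene are not independent. All genes had 92.8%, 93.0%, 95.5% and 92.8% in the same libraries. By coverage, the own-strand share was 88.1% ± 2.9 (SD, n = 2) for PHC1 and 84.4% for the 4SU library.

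**Figure D3:**
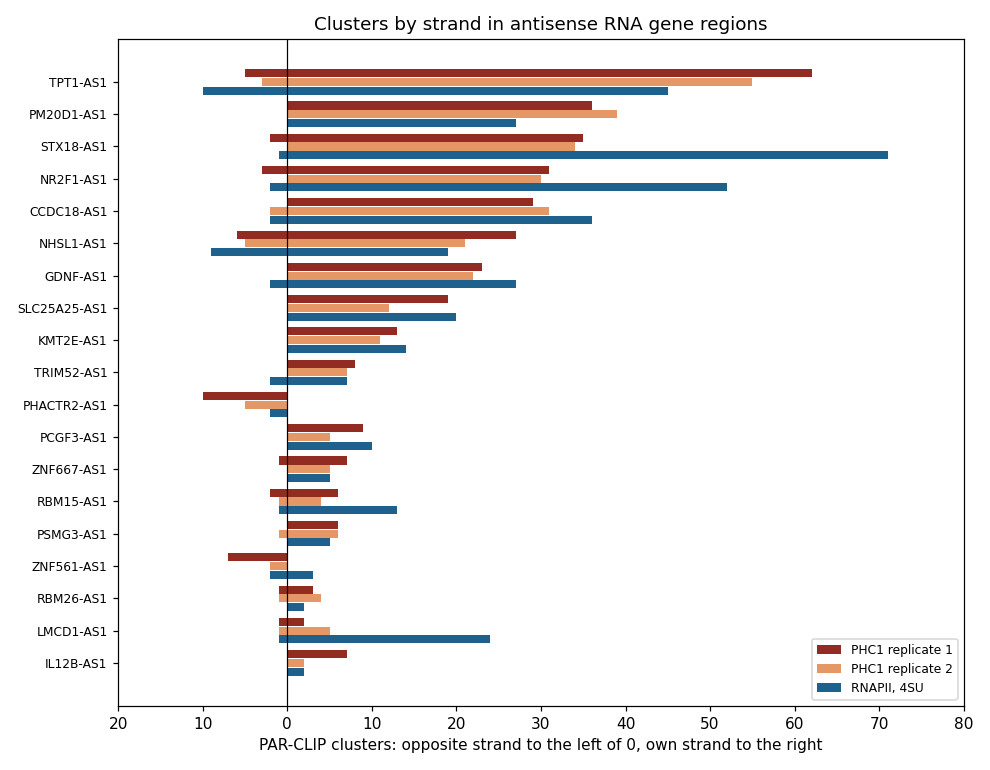
Number of PAR-CLIP clusters on the opposite strand (left of 0) and on the own strand (right of 0) in each of 19 antisense RNA gene regions with at least 8 clusters over both PHC1 libraries and strands. PHACTR2-AS1 and ZNF561-AS1 have PHC1 clusters on the opposite strand alone, TPT1-AS1 has the most own-strand PHC1 clusters (62 and 55), and STX18-AS1 and LMCD1-AS1 have more in the RNAPII library.

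The 7 members with at least 20 clusters in each PHC1 library ranged from 73.8% to 100% own-strand coverage. PM20D1-AS1 and GDNF-AS1 were at 100% in both PHC1 libraries. STX18-AS1 (95.8% and 100%), NR2F1-AS1 (94.96% and 100%), CCDC18-AS1 (100% and 95.1%) and TPT1-AS1 (91.3% and 95.8%) came close. NHSL1-AS1 was lowest with 73.8% and 74.4%, from 27 and 21 clusters on its own strand and 6 and 5 on the other.

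TPT1-AS1 differed by protein: its own-strand share was 49.3% in the 4SU library of RNAPII, where 45 clusters lay on its own strand and 10 on the other. All 10 lay in the last 2 kb of its region of 50.1 kb. They held 50.7% of the coverage of the whole region on both strands, against 6.48% and 4.19% in 4 and 3 clusters in the PHC1 libraries. These are values of single libraries, with no test.

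Some members held PHC1 clusters on the opposite strand alone, and for these the low own-strand values stand beside signal of the facing strand. PHACTR2-AS1 had 0 own-strand and 10 and 5 opposite-strand clusters in the PHC1 libraries. ZNF561-AS1 had 0 against 7 and 2, HOXD-AS2 0 against 2 and 2, and HAND2-AS1 0 against 1 and 2. RBM15-AS1 had 6 and 4 clusters on its own strand and 2 and 1 on the other, but those few held most of the coverage, so its own-strand share was 37.8% and 36.2%.

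Counting clusters on either strand ended 4 of the 26 lower calls. The log2 difference was then 0.23 for PHACTR2-AS1 (limma adjusted p = 0.57), 0.43 for ZNF561-AS1 (0.10), -0.41 for PDCD4-AS1 (0.58) and -0.44 for RBM15-AS1 (0.14, from -1.51 on the own strand). STX18-AS1 lost its higher call (0.22, adjusted p = 0.087). HAND2-AS1, JRKL-AS1 and STPG2-AS1, which had not passed the filter on their own strand, were then called higher (3.05, 1.77 and 0.99). JRKL-AS1 and STPG2-AS1, both under 1 per 1M in RNA, could pass only through PHC1 coverage and so had to differ, and HAND2-AS1 had 0.969 and 1.26 in RNA. Whether the RNA counts were taken by strand is not stated, so an RNA value may hold reads of the facing strand.

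PHC1 clusters were only partly shared between libraries. Of 363 member clusters in PHC1 replicate 1, 213 (58.7%) overlapped a cluster of replicate 2 by at least 1 base on the same strand, against 67.8% over all genes, and 100 (27.5%) overlapped one of the 4SU library of RNAPII (all genes: 31.6%). Within 1 kb of the start lay 8.62% and 6.37% of the members' own-strand PHC1 clusters, and 2.48% and 1.85% over all genes. For the 4SU library these shares were 16.1% and 5.64%. Member regions are shorter, with a median of 10.6 kb against 23.8 kb.

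Some transcribed members, with and without H3K4me3, had PAR-CLIP clusters on their own strand before the annotated start. This was examined after the data had been seen, in the 20 kb before the start. PM20D1-AS1 had 37 and 26 such clusters in the PHC1 libraries and 40 in the 4SU library, beside 36, 39 and 27 within its region (chr1:205831207-205865215 on hg19). SLC25A25-AS1 had 8, 3 and 15 before its start and 19, 12 and 20 within its region (chr9:130873450-130881013 on hg19), the farthest at -8.96 kb from the start. PHACTR2-AS1 and SPATA3-AS1, also transcribed and without the mark, had 0 before their starts in all libraries. Among members with H3K4me3, TRIM52-AS1 had 43, 38 and 37 before its start and 8, 7 and 7 within its region, more PHC1 clusters there than PM20D1-AS1. CCDC18-AS1 and TPT1-AS1, which also carry the mark, had 0 and 0 and 4 and 1 own-strand clusters in the PHC1 libraries there, and 45 and 52 and 36 and 37 on the opposite strand.

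**Figure D4:**
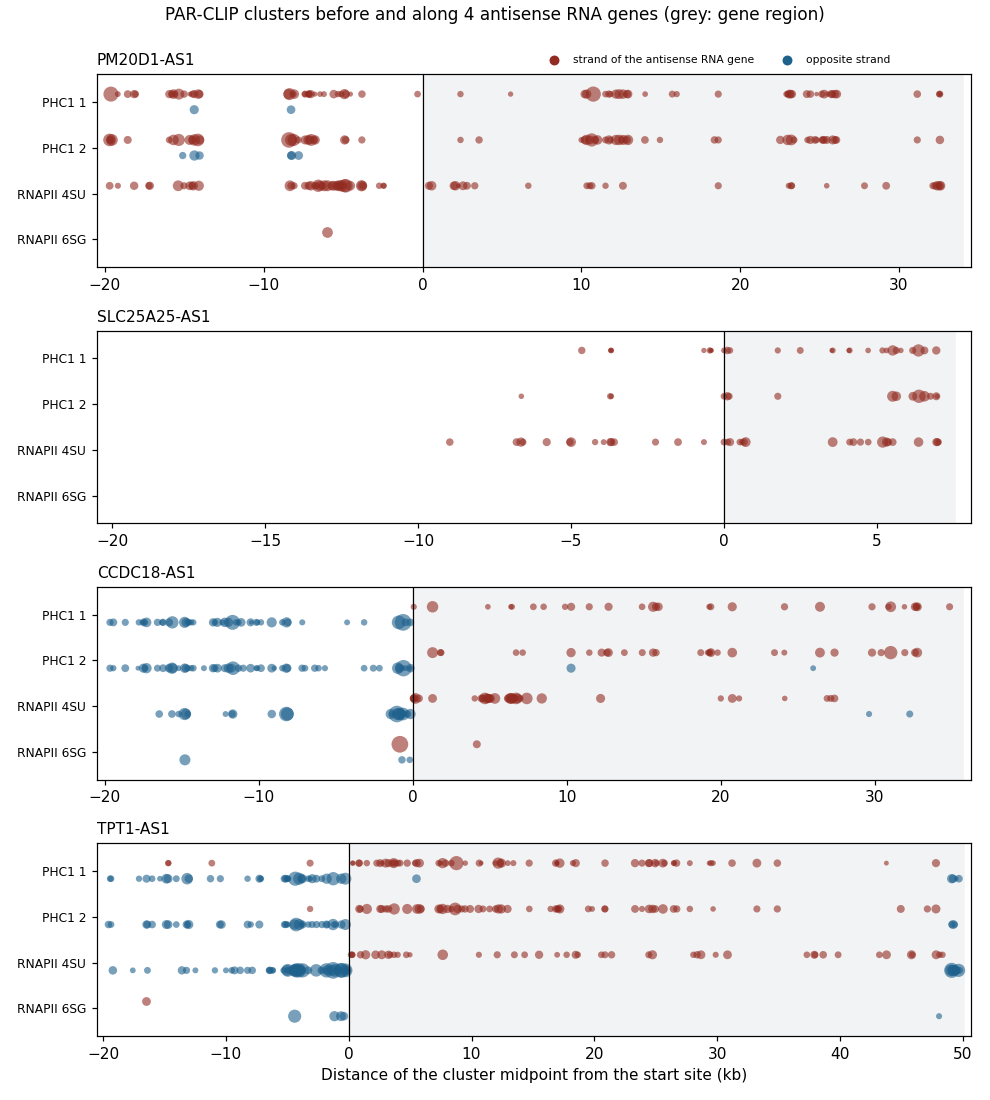
PAR-CLIP clusters by distance of their midpoint from the start site (x, kb) in 4 libraries (rows) for 4 antisense RNA genes, own strand in red and opposite strand in blue, larger points for more summed coverage; grey marks the gene region. Own-strand clusters run on before the start of PM20D1-AS1 and SLC25A25-AS1, while at CCDC18-AS1 and TPT1-AS1 the PHC1 and 4SU clusters change strand near the start.

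Over the 7 members with RNA, a strand and H3K4me3 under 2 times the input, 5 had own-strand PHC1 clusters in that window, 54 in replicate 1 beside 58 within their regions. Over the 37 with RNA, a strand and the mark, 12 had any, 78 beside 286 within. PM20D1-AS1 alone held 37 of the 54 and TRIM52-AS1 alone 43 of the 78, so each sum rests mostly on 1 gene and no difference between the classes is read from them. The window can hold other genes of the same strand, whose part was not tested. The region of PM20D1 itself, on the minus strand, held 2 and 3 PHC1 clusters on its own strand and 29 and 29 on the strand of PM20D1-AS1. EPHA5 likewise held 3 and 3 on its own strand and 10 and 11 on that of EPHA5-AS1, and 15 and 9 in the 4SU library.

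Of the 76 members, 62 had their sense partner among the genes, and no pair had overlapping regions. For 45 pairs both strands were given. In 40 the starts faced away from each other (divergent), in 24 of these within 1 kb, and in 5 the genes ran towards each other: CCDC18-AS1, JRKL-AS1, PCGF3-AS1, SLC25A25-AS1 and STPG2-AS1. The divergent starts lay 11 to 180741 bases apart, with a median of 378.5.

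The partner had more nuclear RNA per length in 42 of 62 pairs, with medians of 1.27 RPKM for partners and 0.394 for antisense RNA genes. H3K4me3 was nearly even, with medians of 7.62 and 7.39 times the input, and the partner was higher in 39 pairs. For the 24 pairs within 1 kb, H3K4me3 of the 2 starts had a Spearman correlation of 0.87 and RPKM one of 0.33. For the other 38 pairs these were 0.44 and 0.36. Close starts can share ChIP reads, the ratios share the input, and the grouping by distance was chosen after the data had been seen.

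**Figure D5:**
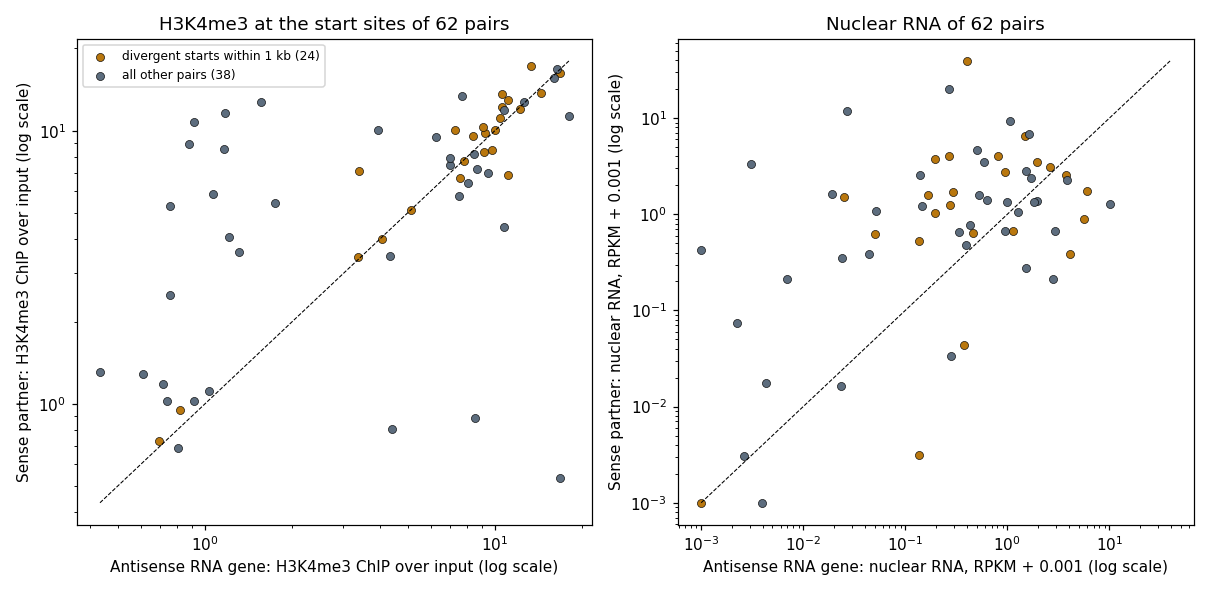
Values of the sense partner (y) against those of the antisense RNA gene (x) for 62 pairs, for H3K4me3 ChIP over input (left) and for mean nuclear RNA in RPKM plus 0.001 (right), all axes log. Pairs with divergent starts within 1 kb lie near the dashed line of equal values for H3K4me3 but not for RNA.

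Even starts went with uneven RNA per length in both directions. ROPN1L-AS1 and ROPN1L start 11 bases apart, with H3K4me3 of 9.99 and 10.0 times the input, and had 0.379 and 0.0432 RPKM. ZNF674-AS1 and ZNF674, 33 bases apart with 9.27 and 9.76, had 4.08 and 0.381 RPKM, and KMT2E-AS1 and KMT2E, 49 bases apart with 10.4 and 11.1, had 6.04 and 1.76. In these 3 pairs the antisense RNA had the higher level per length. Their antisense regions span 1117, 2986 and 3600 bases, and those of the partners 23165, 47733 and 99896. Without scaling to length the partner was higher in all 3. In the first RNA library the partners had 0.807, 15.6 and 148 per 1M, and the antisense RNAs 0.341, 10.3 and 18.2. RBM15-AS1 and RBM15, 152 bases apart with 9.10 and 10.3, had 0.40 and 39.3 RPKM, and RPL26L1-AS1 and RPL26L1, 68 bases apart with 14.4 and 13.7, had 0.19 and 3.77. Where the starts were far apart the mark could differ: ZNF407-AS1 had 16.8 and ZNF407, 77852 bases away, 0.535.

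PHC1 PAR-CLIP over nuclear RNA was also uneven within pairs. Both genes tested and with PHC1 clusters were found in 33 pairs, and the partner had the higher log2 difference in 21 (medians -0.05 and -0.40). The members' values and their partners' use the same libraries. Of the 6 zinc finger partners with a row, 5 were higher and 0 lower (all genes: 34.6% and 45.5%), while 5 of the 7 antisense RNAs were lower. Among these lower members, ZNF561-AS1 had no PHC1 cluster on its own strand and passed the filter through RNA alone. ZNF674 had a log2 difference of 3.11 (SE 0.11) and ZNF674-AS1 -1.39 (SE 0.20). ZNF566 had 2.70 (SE 0.05), from 621 and 647 per 1M against 96.9 and 96.8 in RNA, and ZNF566-AS1 -1.91 (SE 0.42). ZNF143 had 2.17 (SE 0.14) and ZNF143-AS1 -1.33 (SE 0.14). ZNF566-AS1, ZNF674-AS1 and ZNF143-AS1 start 66, 33 and 267 bases from their partners. They held only 1 and 0, 1 and 1, and 1 and 1 PHC1 clusters in the 2 libraries. Their partners held 156 and 168, 46 and 48, and 83 and 99. The antisense regions span 1414, 2986 and 1143 bases, and those of the partners 44443, 47733 and 67560.

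Some pairs went the other way. GDNF-AS1 had no call, and GDNF was lower, listed at 0 on its own strand in both PHC1 libraries against 13.6 and 17.1 per 1M in RNA, so it passed the filter through RNA alone. PSMG3-AS1 was higher and PSMG3 lower (-2.84, SE 0.21). CCDC18-AS1, SLC25A25-AS1 and KMT2E-AS1 were higher together with their partners, which had 1.45 (SE 0.08), 0.88 (SE 0.16) and 2.63 (SE 0.04). Of the 44 pairs with both genes tested, 12 had both lower, among them MNX1, TAPT1, LBX1, ATP2B1, FOXD2 and EPHA5 with their antisense RNAs. Over all genes 45.5% were lower, which is a share of single genes and not of pairs. LBX1-AS1, ATP2B1-AS1, FOXD2-AS1 and LBX1 itself had no PHC1 cluster. They and MNX1-AS1 passed the filter through RNA alone, so their direction was fixed.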

How the data were processed

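Per the submitters' processing notes, the authors used the hg19 build, Bowtie 0.12.7, Bowtie2 2.2.3, TopHat2 2.0.11, SAMtools 0.1.19 and R 3.1.0, 3.2.2 and 3.3.0; which of the R versions served which file is not given in the sources used here. The deposited nuclear RNA table holds whole-number counts per gene and an averaged log2 value of the authors, which was not used for tests. The deposited PAR-CLIP files hold clusters with a mean coverage signal per base. In the deposited ChIP table each start site has a score, found from its values to be reads per 10M minus the input, from which reads were recovered for all genes; the PHC1 and PHC1-dFCS columns join 2 libraries each and carry no SD. The window around the start is not stated.

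Cluster coverage times length was summed per gene region and strand (either strand for the 14 members whose strand is not given). The sums and counts, scaled per 1M with TMM factors from edgeR 4.0.16, were tested as log2(value + 1) with limma 3.58.1 (trend, robust) in R 4.3.3 over all genes with at least 1 per 1M in 2 libraries, with Benjamini-Hochberg adjustment and a threshold of 0.05. As coverage is not a read count, count models (edgeR, and DESeq2 1.42.0) served as alternatives and took numbers of clusters. On data simulated for PHC1 against nuclear RNA with 10547 genes, 98 of 100 changes of 4-fold and 65 of 100 of 2-fold were recovered. ChIP over input is a ratio with 1 read per 10M added to both. Tables were joined with Python 3.11.15, pandas 2.3.3 and scipy 1.17.1.

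Members and lists were chosen with earlier results of these data known. Members were named by rule: the 10 highest and 10 lowest called differences, the 6 with most RNA, the 5 highest H3K27me3, H3K4me3 and RNAPII ratios, the extremes of own-strand share, a list of antisense RNAs with a known role, and the partners of all these. Other members were named after their values were seen. Some members that the rule names are not reported here.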

Additional observations from a re-analysis of the deposited data

How the results depend on the processing

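Over the alternatives run for the named members in PHC1 PAR-CLIP against nuclear RNA, 283 values kept direction and side of the threshold, 15 lost the call, 5 gained one and 7 changed sign. The sign changes were NR2F1-AS1 without PHC1 replicate 2 (0.028, against -0.57 without replicate 1), GDNF-AS1 without PHC1 replicate 1 (0.034, against -0.13 without replicate 2), STX18-AS1 (-0.063) and TRIM52-AS1 (-0.30) with totals without TMM, and TRIM52-AS1 (-0.054), ZNF561-AS1 (0.43) and PHACTR2-AS1 (0.23) with clusters on either strand. The members called lower numbered 15 with a filter of 5 per 1M, and the counts ranged from 7 to 32 lower and 7 to 13 higher when 1 library was left out. Against RNAPII, leaving out 1 library changed the calls most when it was the 4SU library. Only the shallow 6SG library was then the control, and the median over all genes moved by 0.59. The 4SU library as the only control moved that median by -0.59. Cluster numbers with edgeR gave 2 members higher and 2 lower of 15 tested (all genes: 22.3% and 12.1%). The own-strand share of the 4SU library was 90.6% by cluster numbers. At 3 times the input, RNAPII was at 23 members, H3K27me3 at 0 and EZH2 at 0, and at 1.5 times H3K27me3 was at 2 and EZH2 at 6. The causes were not tested. With replicate number as a block, 9 members were higher and 26 lower of 55 tested (all genes: 34.3% and 46.3%). STX18-AS1 then lost its call (0.41, adjusted p = 0.061 by limma). Same-numbered PHC1 and RNA libraries deviated together with r = 0.033 over 10821 genes. With 1 pair of deviations per gene, this cannot tell whether they shared a culture. No pair had overlapping regions, so that alternative gave no value. In pairs with starts within 1 kb the partner had more RNA in 66.7% and in the others in 68.4%, a split chosen after seeing the data. Depth limits the 6SG library most, and clusters in 1 or 2 per library carry several of the calls.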
